A study of Mus musculus with 7 samples.

Results

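The pairs described here are contacts at very long range: all pairs of 10 kb bins at least 2 Mb apart in a capture Hi-C map of the 10 Mb around Epha4 on mouse chromosome 1 (chr1:71000001-81000000, build mm9). Both bins had to lie outside the segment chr1:74790001-75900000, in which the study's inversions lie, so that the distance between the bins was meant to be the same on every chromosome studied. The rule used positions only and no measured value. It gave 253689 of the 500500 bin pairs of a map, and 251370 after 4 bins with few listed pairs had been left out. Capture Hi-C ligates pieces of chromatin that lie close together in the nucleus, enriches those from a chosen region with probes and counts them as read pairs.

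The study compared limb buds of mouse embryos at stage E11.5, labelled Distal, that were WT or carried an inversion made with CRISPR/Cas9 (Inv1, Inv2, Inv3 or Inv4), or Inv1 plus the deletion called DelCTCF in the label (Inv1DelCTCF). It also compared embryonic stem cells with Inv1 (Inv1 ESC). Each of the 6 limb bud libraries pooled 10 embryos, per the series' design text, from forelimb and hindlimb. There was 1 library per condition, which made 7 libraries, so every difference below is between libraries and has no replicate check. The labels give every library the same cell type entry (G4 ESC), and the stem cell library was recognised by its title and the design text. Contact maps hold no expression, so no marker could check the tissue. Inv1 ESC shares its inversion with Inv1 limb buds, and that pair is the comparison between cell types. WT stem cells were not analysed here.

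Chromosomes fold at several scales. At the largest scale within a chromosome, stretches rich in active genes tend to meet each other (the A compartment) and gene-poor, mostly silent stretches meet each other (the B compartment), which gives a checkered pattern of contacts far from the diagonal. At a smaller scale, domains bounded by CTCF sites hold genes together with their enhancers. Epha4, a receptor tyrosine kinase with roles in the limb and the nervous system, lies in a large domain with few genes beside a neighbourhood crowded with genes.

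The region was divided into 7 stretches. From the centromere side they were the outer centromeric flank (chr1:71000001-72300000), the inner centromeric flank (chr1:72300001-73600000), the gene-dense region (chr1:73600001-74790000), the Epha4 domain (chr1:75900001-77510000), the Pax3 domain (chr1:77510001-78500000), the inner telomeric flank (chr1:78500001-79750000) and the outer telomeric flank (chr1:79750001-81000000). These limits were set by hand for this description, and single blocks of 100 kb are named below by their centre. The authors' deposited gene lists give order and no positions. In that order, 23 listed genes lay between Tns1 and Prkag3, on the gene-dense side, against 2 between Slc4a3 and Epha4 and 1 between Epha4 and Pax3. Of these, RefSeq (GRCm38.p6) names 21, 0 and 0 as protein-coding. Outside them, 22 listed genes lay between Bard1 and Tns1 and 14 between Pax3 and Dock10, with 14 protein-coding genes in each. Pax3 encodes a transcription factor of muscle precursors and neural crest. Genes in the flanks were not placed, and no sequence is printed, because no mm9 genome was used here.

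The members held 189041 read pairs in WT and 186302 in Inv1 ESC, and 126305 to 138434 in the other limb libraries. Pairs of 100 kb blocks, of which 2569 could be formed, held a median of 64 read pairs in WT, 60 in Inv1 ESC and 39 to 44 in the others. In the Inv2, Inv3 and Inv4 maps 44.1%, 46.5% and 43.1% of listed members were negative. The labels do not state why, but 82.7% to 86.9% of these negative values lay within 1% of a fixed share of the WT value, so the maps were read as a library minus that share of WT. Values called as sequenced have that share added back, which was decided after the data had been seen. Whether those embryos also carried a WT chromosome is not stated in the labels. Errors given are counting standard errors from the read pairs, or 95% intervals where so named. They cover counting error only, since PCR copies of one molecule were not told apart.

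Contact at very long range took a larger share of the map in stem cells than in limb buds with the same inversion. Pairs beyond 2 Mb held 5.29% ± 0.0137 of all balanced contact outside the segment in Inv1 ESC and 4.01% ± 0.0126 in Inv1 limb buds. The WT share was 4.43% ± 0.0114 and that of Inv1DelCTCF 4.03% ± 0.0124. The deposited Inv2, Inv3 and Inv4 maps gave 3.34%, 3.66% and 5.22%, and 3.89%, 4.04% and 4.83% as sequenced. Inv1 ESC was the highest of the 7 libraries, and the deposited Inv4 map came next.

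The decline with distance was shallower in stem cells up to 5 Mb. Between 2 and 5 Mb the slope of log contact against log distance was -1.19 in Inv1 ESC, -1.33 in WT, -1.59 in Inv1 and -1.64 in Inv1DelCTCF. At 4 to 4.5 Mb, contact was 47.3% ± 0.443 of its level at 2 to 2.5 Mb in Inv1 ESC, 41.2% ± 0.388 in WT and 34.8% ± 0.415 in Inv1. With a fit to 8 Mb the difference of Inv1 ESC from Inv1 was 0.070 in place of 0.40. Farther out the decline stopped in all 7 maps, in Inv1 ESC not before 8 to 8.5 Mb. At 6.5 to 7 Mb the level was 30.2% in WT, 30.0% in Inv1 ESC, 24.4% in Inv1 and 22.2% in Inv1DelCTCF. At 8 to 8.5 Mb it was 35.8% ± 0.635, 27.3% ± 0.551, 26.1% ± 0.616 and 24.3% ± 0.554, so Inv1 ESC had fallen further and was near Inv1. At 9.5 to 10 Mb, where pairs join the ends of the captured region, it was 41.1% ± 2.1, 37.4% ± 2.12, 31.9% ± 1.92 and 35.6% ± 2.25. A level shared by all far pairs makes ratios between them smaller. It was higher in WT than in Inv1 and Inv1DelCTCF. In Inv1 ESC it was higher than in these 2 maps at 6.5 to 7 Mb but near Inv1 at 8 to 8.5 Mb. The part of this level in the differences below was not tested except where named.

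**Figure D1:**
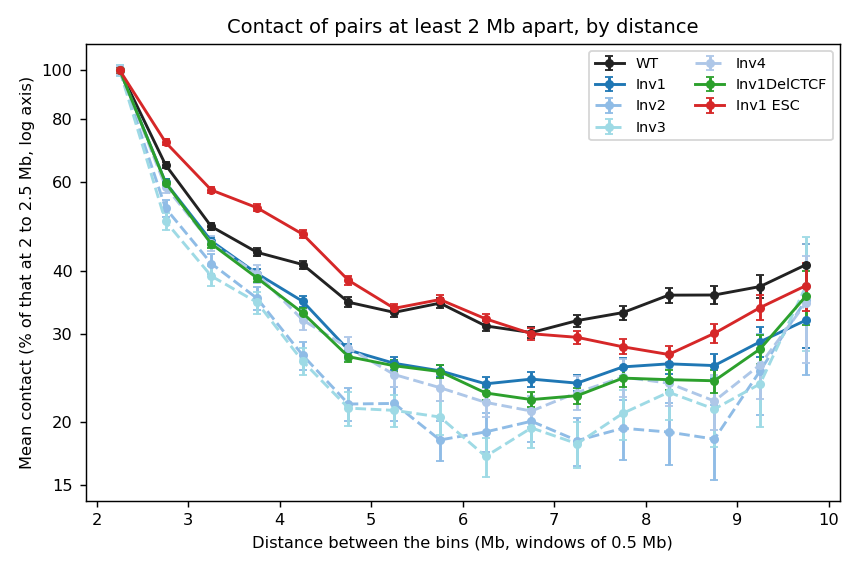
Mean contact of members in 0.5 Mb windows of distance (x axis, Mb), as a percent of that at 2 to 2.5 Mb (y axis, log scale), for the 7 libraries, with bars for the 95% counting interval and dashed lines for the 3 maps with subtracted WT signal. Inv1 ESC is highest up to 5 Mb, at 47.3% against 34.8% in Inv1 limb buds at 4 to 4.5 Mb. The limb curves are flat or rise beyond about 7 Mb, and that of Inv1 ESC falls to 27.3% at 8 to 8.5 Mb before it rises.

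Each contact was then divided by the mean contact at the same distance in the same map (observed over expected), so that 1 is the average for that distance. The value of a pair of stretches is the mean over its 100 kb block pairs. This mean includes the pattern itself, which makes contrasts smaller, and near 2 Mb it rests largely on the few stretches of that spacing. In each of the 7 maps the gene-dense region met the Epha4 domain less than average. It met the Pax3 domain more than average in 6 of them, and in Inv4 the 95% counting interval (0.964 to 1.09) held the average. The Epha4 and Pax3 domains met each other most, together with the inner and outer telomeric flanks in limb buds. The inner centromeric flank met the gene-dense region more than average in every map.

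**Figure D2:**
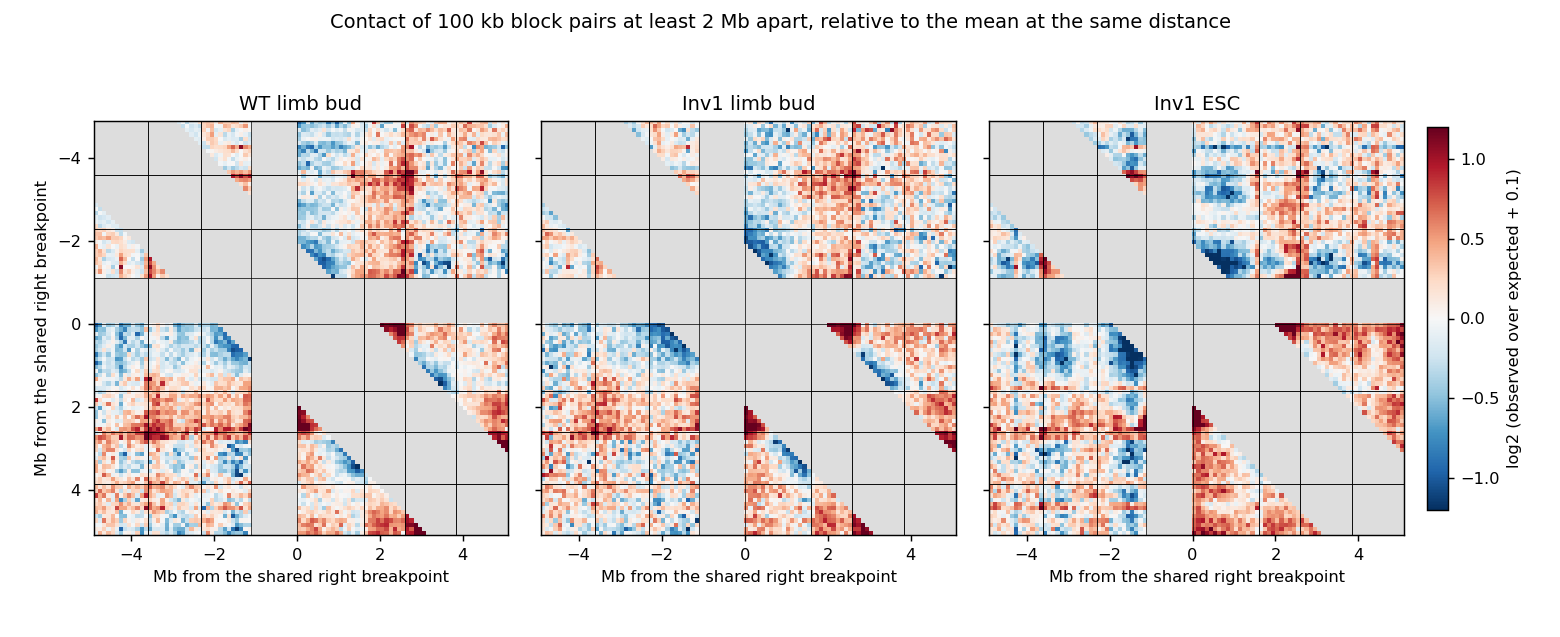
Observed over expected contact (log2 with 0.1 added, colour) of the 100 kb block pairs beyond 2 Mb in WT, Inv1 limb buds and Inv1 ESC, with both axes in Mb from the right end of the left-out segment and lines at the limits of the 7 stretches. Grey areas are pairs under 2 Mb or within the segment. The gene-dense and Epha4 square is blue in all 3 maps (0.778, 0.716 and 0.661), and the square of the Epha4 domain and telomeric flank is reddest in Inv1 ESC (0.974, 1.04 and 1.23).

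Gene-dense region and Epha4 domain. Their contact was 0.778 ± 0.0071 of expected in WT and 0.716 ± 0.00797 in Inv1. Inv2, Inv3 and Inv4 gave 0.675 ± 0.0192, 0.636 ± 0.0191 and 0.636 ± 0.0147, Inv1DelCTCF 0.686 ± 0.0077 and Inv1 ESC 0.661 ± 0.00668. WT was the highest of the 7, and the 95% counting interval of WT (0.764 to 0.792) did not meet that of any other map. As sequenced, Inv2, Inv3 and Inv4 gave 0.729, 0.709 and 0.698, still below WT. The depth of this depletion rested on the scale. When every block was first brought to the same mean log value over its members (equal block totals), the log2 value rose from -0.36 to -0.048 in WT, from -0.48 to -0.077 in Inv1 and from -0.60 to -0.20 in Inv1 ESC, while in Inv2 it became 0.039. Equal block totals thus took away most of the depletion in WT and Inv1, and a smaller part of it in Inv1 ESC. The reason was not tested. Over pairs from 3 Mb, Inv1 ESC was above Inv1 (log2 difference 0.083), where over all members it was below (-0.12).

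The difference between WT and the inversions was greatest beside the left-out segment. This subdivision was chosen after the values had been seen. Over 30 block pairs, the first part of the Epha4 domain (chr1:75900001-76400000) met the gene-dense region at 0.623 ± 0.0129 of expected in WT, against 0.468 ± 0.0127 in Inv1 and 0.458 ± 0.0123 in Inv1DelCTCF. Inv2, Inv3 and Inv4 gave 0.292 ± 0.028, 0.323 ± 0.0281 and 0.392 ± 0.0244. As sequenced, these 3 were at 0.462, 0.471 and 0.490, close to Inv1. Inv1 ESC was at 0.632 ± 0.014, within counting error of WT although its chromosome is that of Inv1. The 5 mutant limb maps were thus all below both WT and the stem cells. Over the 126 block pairs of the rest of the domain (chr1:76400001-77510000) the order was another one, with 0.815 in WT, 0.776 in Inv1, 0.740 in Inv1DelCTCF and 0.668 in Inv1 ESC. With the inner centromeric flank the first part of the domain was at 0.772 in WT, 0.747 in Inv1, 0.742 in Inv1DelCTCF and 0.764 in Inv1 ESC. With the outer centromeric flank it was at 0.690, 0.753, 0.788 and 0.831, so WT was there the lowest of these 4 maps.

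Single blocks, whose values are summed contact over summed expected contact, showed the same. The block beside the segment (centre 75.95 Mb) met the gene-dense region at 0.631 in WT, 0.543 in Inv1 ESC, 0.402 in Inv1, 0.363 in Inv1DelCTCF, with 0.345 ± 0.0608, 0.217 ± 0.0642 and 0.062 ± 0.061 in the deposited Inv4, Inv3 and Inv2 maps. As sequenced, these 3 were at 0.464 ± 0.0326, 0.413 ± 0.0298 and 0.348 ± 0.0251, near Inv1 and Inv1DelCTCF. It was the lowest block of the right-hand side in Inv1 and Inv1DelCTCF. In WT and Inv1 ESC the lowest was the block at 76.55 Mb, with 0.556 and 0.439.

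Gene-dense region and Pax3 domain. These stretches, separated by the whole gene-poor Epha4 domain, met at 1.248 ± 0.0153 of expected in WT and at 1.09 ± 0.0119 in Inv1 ESC, the highest and the lowest of the 4 maps without subtraction. Inv1 gave 1.16 ± 0.016 and Inv1DelCTCF 1.16 ± 0.0151. Inv2, Inv3 and Inv4 were at 1.14 ± 0.0428, 1.19 ± 0.0473 and 1.03 ± 0.033. From 76.55 Mb on, contact with the gene-dense region was on the whole higher toward the Pax3 domain, and it peaked at the far end of that domain, in the block at 78.45 Mb. That block was the highest of the right-hand side in WT (1.57 ± 0.0916), Inv1 (1.46 ± 0.0811), Inv1DelCTCF (1.38 ± 0.0593) and Inv1 ESC (1.80 ± 0.0594). A few blocks on, at 78.75 Mb, the value had fallen to 0.870 in WT, 0.782 in Inv1, 0.825 in Inv1DelCTCF and 0.766 in Inv1 ESC. In stem cells the peak was narrower, and the block at 77.45 Mb stood out at 1.201 between neighbours at 0.879 and 0.781. The blocks at 77.65 and 77.75 Mb, inside the Pax3 domain, met the gene-dense region at 0.830 and 0.783 in Inv1 ESC, against 1.17 and 1.17 in Inv1 and 1.24 and 1.26 in WT.

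Centromeric flank and gene-dense region. The inner flank met the gene-dense region at 1.403 ± 0.0288 of expected in WT, 1.23 ± 0.0295 in Inv1, 1.24 ± 0.0289 in Inv1DelCTCF and 1.58 ± 0.0281 in Inv1 ESC, over 15 block pairs. Inv2, Inv3 and Inv4 were at 1.299, 1.17 and 1.15, and at 1.35, 1.28 and 1.26 as sequenced. The log2 difference of Inv1 ESC from Inv1 was 0.36, and between 0.096 (a line in log distance as the expected value) and 0.89 (equal block totals) under alternatives. The outer flank went the other way in stem cells, with 0.810 ± 0.00825 in Inv1 ESC against 0.912 to 0.984 in the 6 limb maps. With equal block totals it was above average in both Inv1 ESC and Inv1, and no longer lower in Inv1 ESC. The change between these flanks was sharp. The block at 72.15 Mb met the gene-dense region at 0.746 in WT, 0.662 in Inv1 and 0.638 in Inv1 ESC. The next but one, at 72.35 Mb, was at 1.78 ± 0.0563 in WT, 1.43 ± 0.0542 in Inv1, 1.48 ± 0.0557 in Inv1DelCTCF and 2.09 ± 0.0564 in Inv1 ESC. It was the highest block of the centromeric side in each of these 4 maps, and stood at 1.498, 1.48 and 1.54 in the deposited Inv2, Inv3 and Inv4 maps.

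**Figure D3:**
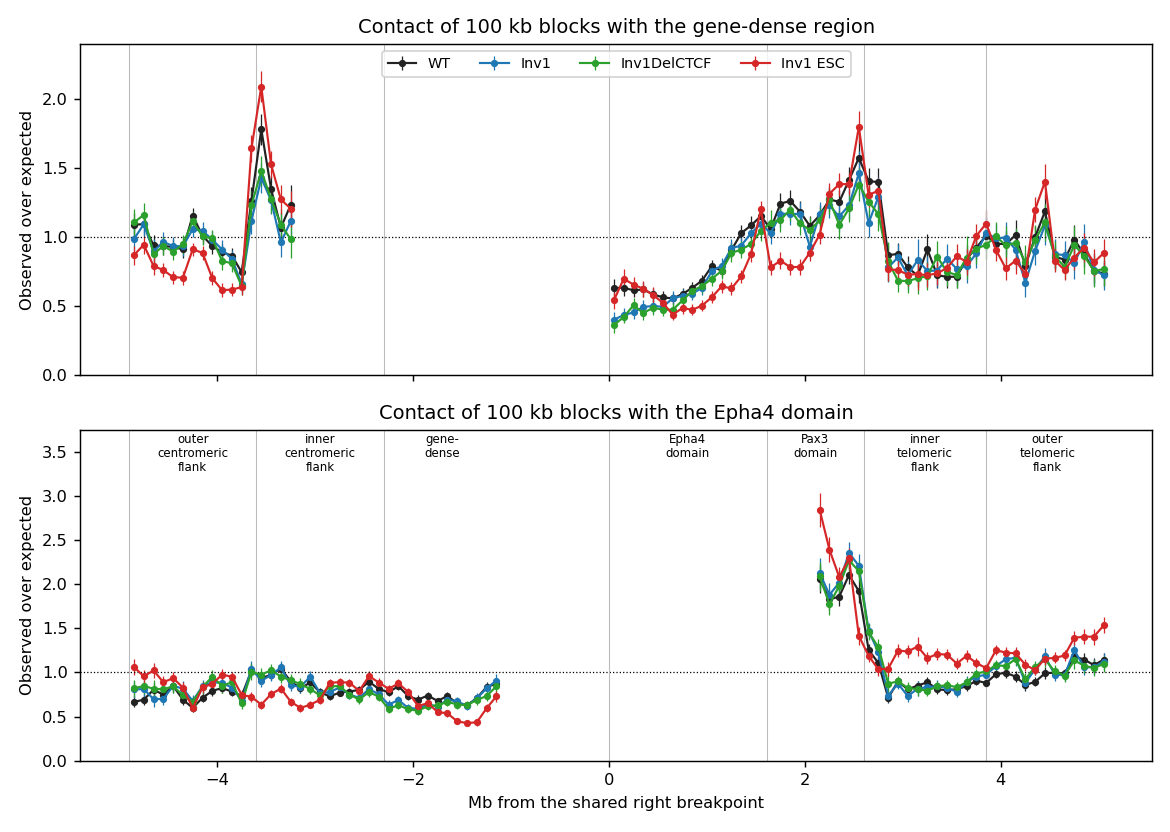
Observed over expected contact of 100 kb blocks with the gene-dense region (upper panel) and with the Epha4 domain (lower panel), over members only, by position in Mb from the right end of the left-out segment, for WT, Inv1, Inv1DelCTCF and Inv1 ESC, with bars for the 95% counting interval. Grey lines mark the limits of the 7 stretches. Contact with the gene-dense region has its highest block on each side at 1.43 to 2.09 (centromeric) and 1.38 to 1.80 (end of the Pax3 domain), with a further rise to 1.402 near the telomeric end in Inv1 ESC, and contact of the telomeric flank with the Epha4 domain is raised in Inv1 ESC.

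Epha4 and Pax3 domains. Their most distant blocks met at 2.01 ± 0.0296 of expected in WT, against 2.21 ± 0.0317 in Inv1, 2.15 ± 0.03 in Inv1DelCTCF and 2.13 ± 0.0288 in Inv1 ESC. The deposited Inv2, Inv3 and Inv4 maps gave 2.11 ± 0.0685, 2.69 ± 0.0714 and 2.33 ± 0.0608. WT was the lowest of the 7 maps, and its 95% counting interval (1.95 to 2.07) met that of Inv2 and of no other map. Of the 10 block pairs with the highest WT values, 5 joined these domains. The highest of all joined the block beside the segment to the one at 77.95 Mb, at 3.18 ± 0.152 in WT, 3.55 ± 0.18 in Inv1, 3.33 ± 0.186 in Inv1DelCTCF and 3.74 ± 0.181 in Inv1 ESC. Another 3 of the 10 joined the inner and outer telomeric flanks. The remaining 2 lay far from the diagonal. One joined 74.65 Mb in the gene-dense region to 78.45 Mb at the end of the Pax3 domain, at 2.45 ± 0.362 in WT and 2.70 ± 0.208 in Inv1 ESC but 1.61 ± 0.214 in Inv1. The other joined 72.25 to 78.55 Mb, at 2.45 ± 0.263 in WT, 2.25 ± 0.357 in Inv1 and 1.75 ± 0.205 in Inv1 ESC. These pairs were picked by their WT values, so WT is high in them by the choice.

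Epha4 domain and telomeric flank. The Epha4 domain met the flank beyond Pax3 more in stem cells than in any limb map. Over the whole telomeric flank contact was 1.23 ± 0.00769 of expected in Inv1 ESC, against 0.974 in WT, 1.04 in Inv1, 1.05 in Inv1DelCTCF and 1.04 to 1.13 in the deposited Inv2, Inv3 and Inv4 maps. As deposited, limb maps other than WT were thus slightly above the average too. With the inner telomeric flank its contact was 1.19 ± 0.0109 of expected in Inv1 ESC, against 0.920 ± 0.0091 in WT, 0.960 ± 0.0114 in Inv1 and 1.00 ± 0.0113 in Inv1DelCTCF. The Inv2, Inv3 and Inv4 values were 1.01 ± 0.027, 0.964 ± 0.0261 and 1.07 ± 0.0214. With the outer telomeric flank it was 1.02 in WT, 1.10 in Inv1, 1.08 in Inv1DelCTCF, 1.10 to 1.19 in the other limb maps and 1.26 ± 0.0107 in Inv1 ESC. Stem cells were above all 6 limb maps in both. Of the 163 block pairs with the inner flank, 132 were higher in Inv1 ESC than in Inv1, 42 of them by over 1.5-fold and 1 lower by that much. Over all 2569 block pairs, 9.26% were above by over 1.5-fold and 10.5% below, with a median log2 ratio of -0.0013. Block pairs that share a block are not independent. The 5 well covered block pairs with the largest rise in Inv1 ESC over Inv1 all joined blocks of the Epha4 domain (76.65 to 77.25 Mb) to blocks at 78.75 to 79.25 Mb. The first of them, 76.65 with 79.05 Mb, was at 1.85 ± 0.305 in Inv1 ESC, 0.761 ± 0.111 in Inv1, 0.770 ± 0.0974 in WT and 0.667 ± 0.107 in Inv1DelCTCF. These 5 were picked by their ratio of Inv1 ESC to Inv1, so Inv1 ESC is above Inv1 in them by the choice. With block totals equalised, the log2 difference between Inv1 ESC and Inv1 over the whole telomeric flank was 0.069 in place of 0.25 and stayed above its counting error of 0.015.

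Inner and outer telomeric flanks. Of the 20 pairs of stretches this one differed most between Inv1 ESC and Inv1 (log2 -0.54). With equal block totals the inner centromeric flank with the gene-dense region differed more (0.89 against -0.67). Contact was 1.41 ± 0.037 of expected in Inv1 ESC, against 2.04 ± 0.0488 in Inv1, 2.10 ± 0.0507 in Inv1DelCTCF and 2.08 ± 0.0429 in WT. The values of Inv2, Inv3 and Inv4 were 2.37 ± 0.11, 2.27 ± 0.107 and 2.19 ± 0.0941. All 6 limb maps lay above the stem cells, and all 15 block pairs, which share blocks, were lower in Inv1 ESC than in Inv1. Over all 2569 block pairs the median log2 ratio was -0.0013. The pairs between these flanks are 2 to 2.49 Mb apart and lie at the edge of the map. With block totals equalised, the log2 value was 0.64 in WT, 0.65 in Inv1 and -0.022 in Inv1 ESC.

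**Figure D4:**
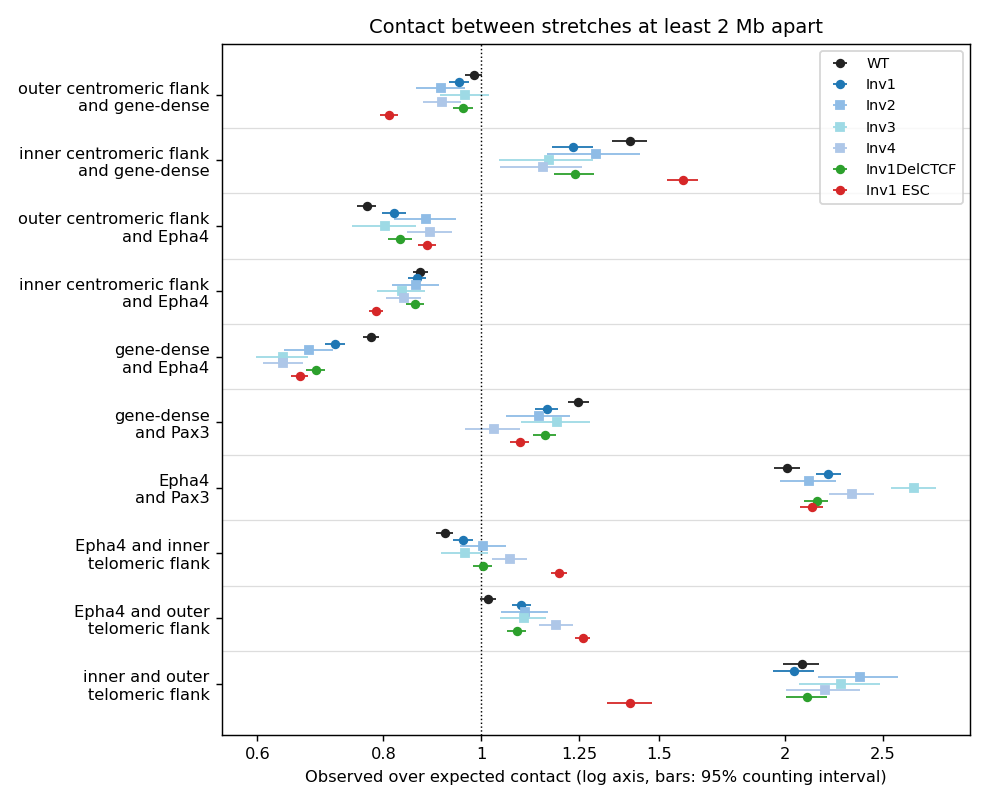
Observed over expected contact (x axis, log scale) of 10 pairs of stretches over members only, for the 7 libraries, with bars for the 95% counting interval; squares mark the 3 maps with subtracted WT signal. Inv1 ESC is to the right of the limb maps for the Epha4 domain with either telomeric flank (1.19 and 1.26) and to the left for the inner with the outer telomeric flank (1.41).

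Over the 20 pairs of stretches with members, Inv1 ESC lay outside the range of the 6 limb maps in 9, above it in 4 and below it in 5. With Inv2, Inv3 and Inv4 as sequenced, it was above in 5 and below in 9. WT lay outside the range of the 5 mutant limb maps in 14 of the 20, also as sequenced (8 above, 6 below). In every pair some map is lowest and another highest, so a part of such counts comes from ranking alone. As deposited, Inv3 was also at an end of the limb range in many pairs. Pairs that share a stretch are not independent. WT also had the flattest decline of the limb maps, and the part of this level in the 14 was not tested, except that removing the mean contact beyond 5 Mb left the gene-dense and Epha4 difference of Inv1 from WT at -0.15 ± 0.058 (log2) against -0.12 ± 0.021.

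A lean toward either side was then given to each stretch that lies over 2 Mb from both sides, as the log2 ratio of its contact with the gene-dense region to that with the Epha4 domain. Stem cells leaned further to the Epha4 domain than Inv1 limb buds in the outer centromeric flank and the telomeric flank. The inner centromeric flank could be given a lean only from 72.35 to 72.65 Mb and went the other way. Its blocks there were at 1.72, 1.02, 0.64 and 0.85 in Inv1 ESC, against 0.66, 0.38, -0.14 and 0.39 in Inv1. The Pax3 domain leaned to the Epha4 domain in all maps, at -0.68 in WT, -0.91 in Inv1 and -0.98 in Inv1 ESC. The outer centromeric flank leaned to the gene-dense region in limb buds, by 0.36 ± 0.021 in WT, 0.24 ± 0.025 in Inv1 and 0.22 ± 0.025 in Inv1DelCTCF. In Inv1 ESC it leaned to the Epha4 domain, at -0.096 ± 0.021. Inv2, Inv3 and Inv4 were at 0.11 ± 0.062, 0.27 ± 0.064 and 0.074 ± 0.047, of which Inv2 and Inv4 lay within 2 counting errors of 0. The lean of the telomeric flank was -0.40 ± 0.017 in Inv1 ESC, against -0.14 ± 0.022 in Inv1, -0.17 ± 0.022 in Inv1DelCTCF and -0.024 ± 0.017 in WT. In Inv2, Inv3 and Inv4 it was -0.26 ± 0.065, -0.035 ± 0.057 and -0.31 ± 0.045, so no limb map was as low as the stem cells.

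Within these flanks the lean changed from block to block. Over the 13 blocks of the outer centromeric flank its SD between blocks was 0.51 in Inv1 ESC, against 0.27 in WT, 0.20 in Inv1 and 0.24 in Inv1DelCTCF. Over the 25 blocks of the telomeric flank the SD was 0.37 in Inv1 ESC, against 0.24, 0.20 and 0.13. The deposited Inv2, Inv3 and Inv4 maps gave 0.28, 0.46 and 0.31 in the centromeric and 0.39, 0.40 and 0.23 in the telomeric flank, so Inv2 and Inv3 were there above the stem cells. As sequenced, they gave 0.23, 0.32 and 0.28, and 0.18, 0.18 and 0.19, all below the stem cells. WT and Inv1 ESC had like depth. In the outer centromeric flank, the Inv1 ESC SD includes the block at 72.25 Mb, beside the limit to the inner flank. That block was the highest of the flank, at 1.19, and no SD without it was computed.

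All 13 blocks of the outer centromeric flank leaned to the gene-dense region in WT, 12 in Inv1 and 3 in Inv1 ESC. In the telomeric flank, 9, 5 and 5 of 25 did so, and 21 of the 25 were lower in Inv1 ESC than in Inv1. In Inv1 ESC the block at 72.25 Mb, and next to it that at 72.35 Mb in the inner flank, leaned to the gene-dense region by 1.19 and 1.72, while those at 71.95 and 72.05 Mb leaned to the Epha4 domain by -0.66 and -0.62. In Inv1 the same 4 blocks were at 0.10, 0.66, 0.048 and 0.023, and in WT at 0.31, 0.93, 0.11 and 0.14.

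A few telomeric blocks leaned to the gene-dense region in stem cells and WT, but mostly to the Epha4 domain in the mutant limb maps. Among them were the block at 78.65 Mb, at 0.37 in Inv1 ESC and 0.34 in WT, and those at 80.25 and 80.35 Mb, at 0.23 and 0.28 in Inv1 ESC and 0.16 and 0.26 in WT. In Inv1 the same blocks were at 0.076, -0.20 and -0.12, and in Inv1DelCTCF at -0.14, -0.12 and -0.051. In the deposited Inv2, Inv3 and Inv4 maps each of them leaned to the Epha4 domain. The run of blocks from 78.85 to 79.25 Mb, between these blocks, was at -0.82 to -0.68 in Inv1 ESC and -0.24 to 0.037 in WT. In the Pax3 domain, the block at 78.45 Mb turned from -0.29 in WT and -0.59 in Inv1 to 0.35 in Inv1 ESC. These blocks were picked after their values had been seen.

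**Figure D5:**
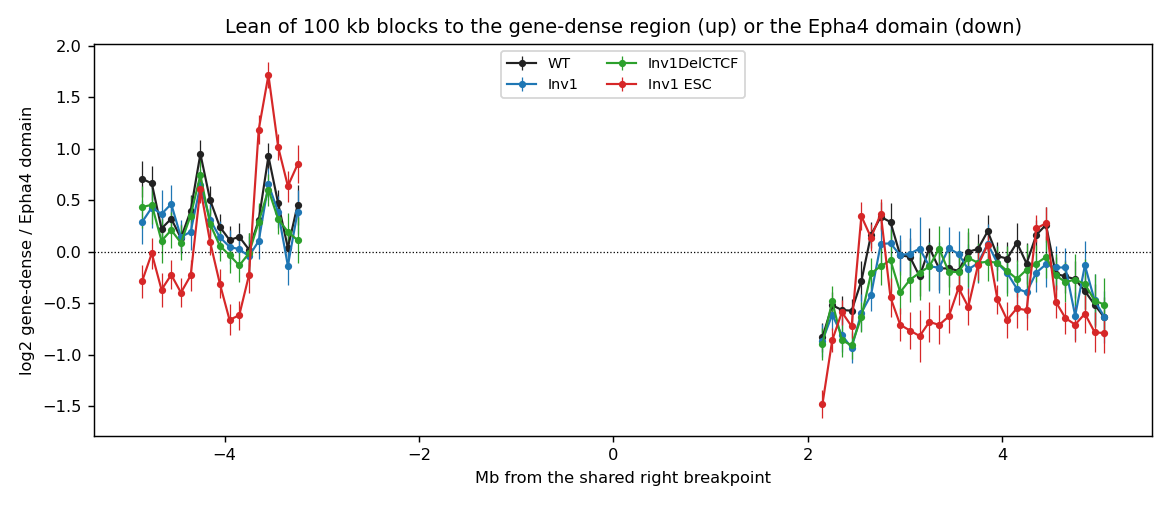
Lean of 100 kb blocks (y axis, log2 ratio of observed over expected contact with the gene-dense region to that with the Epha4 domain) by position in Mb from the right end of the left-out segment, for WT, Inv1, Inv1DelCTCF and Inv1 ESC, with bars for the 95% counting interval. Blocks that cannot be over 2 Mb from both are left out. Left of the segment, Inv1 ESC ranges from -0.66 to 1.72, against -0.14 to 0.66 in Inv1.

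The first component of the contacts across the segment (blocks left of it against blocks right of it) divided the blocks without using the stretches, and not along their limits. Runs of blocks with a mean loading over 0.1 in size are given here by their first and last centre. In WT the blocks from 74.05 to 74.75 Mb, the telomere side of the gene-dense region, went together with 72.25 to 72.45 Mb on the left and, on the right, with 77.05 to 78.65, 79.65 (with the block after it) and 80.25 to 80.35 Mb. On the other side were 71.05 to 71.55 and 73.35 to 73.95 Mb, with 78.75 to 79.55 and 80.45 to 80.95 Mb. The first blocks of the stretch called gene-dense, up to 73.95 Mb, thus fell on the other side from the rest of it. The Epha4 domain was at neither end in WT, since its blocks from 76.05 to 76.75 Mb had a mean loading of -0.061, and its last blocks joined the gene-dense side. In Inv1 ESC the blocks from 74.05 to 74.75 Mb went with 71.65 Mb and 72.25 to 72.85 Mb, and with 77.35 to 77.55, 78.15 to 78.75 and 80.25 to 80.45 Mb. On the other side were 71.05, 71.25 to 71.55, 71.75 to 72.15 and 72.95 to 73.95 Mb, with 76.15 to 77.25, 78.85 to 79.35 and 79.95 to 80.15 Mb. Unlike in WT, blocks of the Epha4 domain (76.15 to 77.25 Mb) were thus on the other side, with a mean loading of -0.108. The blocks around the Pax3 domain that joined the gene-dense side thus formed 1 run of 17 blocks in WT and runs of 3 and 7 in Inv1 ESC.

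The first component took 38.5% of the variance of these block pairs in Inv1 ESC and 27.6% in WT, at like depth, and 17.7% in Inv1 and 18.7% in Inv1DelCTCF, which had fewer read pairs. As sequenced, it took 20.6%, 17.8% and 19.5% in Inv2, Inv3 and Inv4. Each value is that of a map's own best component. The vectors of Inv1 had an overlap with those of WT of 0.918 on the left and 0.905 on the right, where 1 is identity, those of Inv1DelCTCF 0.821 and 0.837, and those of Inv1 ESC 0.788 and 0.649. Along the WT pattern, the strength (root mean square, log2) was 0.107 ± 0.00639 in Inv1, 0.0932 ± 0.00625 in Inv1DelCTCF and 0.0921 ± 0.00514 in Inv1 ESC, so stem cells were not stronger along the WT pattern itself. The WT value of 0.136 is fixed by the choice of its own vectors.

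Block pairs that changed were counted with a threshold of 1.5-fold in observed over expected. Between Inv1 ESC and Inv1, 238 of 2569 block pairs were above it (9.26%) and 269 below (10.5%), against 7.74% above and 7.97% below over block pairs of all distances outside the segment. Of these, 171 and 219 also passed their 95% counting interval. Between Inv1 and WT, 105 were above and 98 below, against 2.66% and 2.5% over all distances, and 64 and 56 passed the interval. Between Inv1DelCTCF and Inv1, 118 were above and 132 below, against 2.99% and 3.35%, and 57 and 72 passed. Between Inv1DelCTCF and WT, 111 were above and 120 below, against 2.78% and 3.04%, and between Inv1 ESC and WT, 176 and 238, against 6.33% and 7.18%. The comparisons with WT share the WT map, and those with Inv1 share Inv1. The set over all distances holds the 2569 block pairs with members and 1347 nearer ones. Of the nearer ones, 0 changed between Inv1 and WT and between Inv1DelCTCF and Inv1, and 65 above and 46 below between Inv1 ESC and Inv1 (4.83% and 3.42%). Members hold fewer read pairs than nearer pairs, and nothing is read from the higher share among them.

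Between limb maps the changes were fewest where depth is greatest, while those of stem cells were as frequent there as farther out. At 2 to 3 Mb, 2.24% of 535 block pairs changed between Inv1 and WT, 2.43% between Inv1DelCTCF and Inv1 and 21.1% between Inv1 ESC and Inv1. Beyond 5 Mb the shares of 1198 block pairs were 12.4%, 14.9% and 21.0%. The SD of the log2 ratios was 0.33 for Inv1 against WT, with a median counting error of 0.29, and 0.45 for Inv1 ESC against Inv1, with 0.29. The deposited Inv2, Inv3 and Inv4 maps gave 466, 452 and 331 block pairs above WT, against 11.9%, 11.6% and 8.45% over all distances, and 626, 614 and 486 below, against 16.9%, 16.7% and 12.7%. As sequenced, 93, 96 and 83 were above and 105, 111 and 96 below. No share over all distances is given for these counts, so nothing about the members is read from them.

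Among the well covered block pairs, 954 of 2569, those that fell most in stem cells joined the gene-dense region to the stretch around the border of the Epha4 and Pax3 domains. All 5 well covered pairs with the largest fall joined blocks at 74.25 to 74.55 Mb to blocks at 76.95 to 77.75 Mb. The first, 74.35 with 77.75 Mb, was at 0.463 ± 0.0702 in Inv1 ESC, 1.41 ± 0.163 in Inv1, 1.28 ± 0.142 in WT and 1.301 ± 0.154 in Inv1DelCTCF. The second, 74.55 with 77.15 Mb, was at 0.340 ± 0.0582 in Inv1 ESC and 0.993 ± 0.118 in Inv1, with 0.801 ± 0.0904 in WT and 1.00 ± 0.122 in Inv1DelCTCF. In both, Inv1 ESC was below all 6 limb maps. These pairs were picked by their ratio of Inv1 ESC to Inv1, so Inv1 ESC is below Inv1 in them by the choice.

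Inv1DelCTCF differed from Inv1 in 2 of the 20 pairs of stretches by more than the 95% counting interval of the difference. They were the gene-dense region with the Epha4 domain, at 0.686 ± 0.0077 in Inv1DelCTCF and 0.716 ± 0.00797 in Inv1, and the Epha4 domain with the inner telomeric flank, at 1.00 ± 0.0113 and 0.960 ± 0.0114. With 20 pairs compared, some can pass by counting error alone, and the interval leaves out variation between libraries. The part of the deletion was not tested. Among the other 18, the Epha4 and Pax3 domains were at 2.15 and 2.21, and the gene-dense region and the Pax3 domain at 1.16 in both. Over the 2569 block pairs, the SD of the log2 ratio of Inv1DelCTCF to Inv1 was 0.36, with a median counting error of 0.32.

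As a description of whole patterns, the correlation of log2 observed over expected over the 2569 block pairs was 0.677 between WT and Inv1, 0.653 between WT and Inv1DelCTCF and 0.647 between Inv1 and Inv1DelCTCF. Inv1 ESC was at 0.549 with WT, 0.505 with Inv1 and 0.514 with Inv1DelCTCF, all lower than between limb maps although its depth was near that of WT. With Inv2, Inv3 and Inv4 as sequenced, the 15 pairs of limb maps were at 0.647 to 0.697 and the 6 pairs with Inv1 ESC at 0.497 to 0.559. As deposited, the lowest pair of limb maps was at 0.101. The subtracted maps carry the counting noise of WT with the opposite sign. Block pairs that share a block are not independent, and all maps share the same bins and probes.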

How the data were processed

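The deposited maps hold 1 value for each pair of 10 kb bins (build mm9), after balancing that gives all bins the same sum (Knight-Ruiz, as the names of the deposited maps say). The signal that the authors deposited for WT, Inv1, Inv1DelCTCF and Inv1 ESC is balanced in this way and never negative. Those the authors deposited for Inv2, Inv3 and Inv4 were treated as a score, since their values fit a library minus WT with weights 0.423, 0.369 and 0.334; the labels do not state this step. The scores of the authors' deposited gene tables served for gene order only. Bowtie2 2.2.6 and Juicer are named in the submitters' processing notes.

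Read pairs were recovered by fitting 1 factor per bin; 99.96% to 100.0% of low values lay within 0.1 of a whole number. Outside the segment, maps held 2882315 to 4362134 read pairs. A bin was dropped when its listed pairs numbered less than 25% of the median bin's. Expected contact was the mean per distance over a 110 kb window. Block pairs needed 25 bin pairs, and log2 ratios of them used a pseudocount of 0.1, which makes changes of low values smaller. "Well covered" pairs had an expected 50 read pairs in both maps. Named pairs were the 10 highest in WT and the 5 highest and 5 lowest ratios of Inv1 ESC to Inv1. Scripts (Python 3.11.15, numpy 2.4.6, pandas 2.3.3) were tested on simulated maps. Alternatives changed the distance limits, the expected value, the blocks, the scale, the pseudocount and the fold threshold (1.25 and 2). With 1 library per condition no test was run and no p-value is given. Stretch limits were set by hand at 71.0, 72.3, 73.6, 74.79, 75.9, 77.51, 78.5, 79.75 and 81.0 Mb. The members, stretches and lists were chosen with earlier results of these data known.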

Additional observations from a re-analysis of the deposited data

How the results depend on the processing

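Of 70 stretch values given for single maps, 392 values were computed under alternatives. Of these, 139 moved by less than the 95% counting interval and 253 by more. The sign changed in 54, in 19 of them with both values beyond counting error, and the 19 follow. In log2, equal block totals turned the outer centromeric flank with the gene-dense region to 0.25 in Inv1 ESC, 0.26 in Inv1DelCTCF, 0.24 in Inv1, 0.44 in Inv2 and 0.37 in Inv4, and with the Epha4 domain to 0.034 in Inv1 ESC, 0.096 in Inv2 and 0.14 in Inv3. They turned the inner centromeric flank with the Epha4 domain to 0.040 in Inv1DelCTCF, 0.041 in Inv1, 0.033 in WT, 0.15 in Inv2 and 0.17 in Inv3, and the Epha4 domain with the inner telomeric flank to 0.053 in WT. This setting adds 0.1 and drops block pairs that are then at or below about 0, which in Inv2, Inv3 and Inv4 raises the mean. A line in log distance as the expected value turned the outer centromeric flank with the gene-dense region to 0.065 in Inv1 and 0.072 in Inv1DelCTCF, and the Epha4 domain with the outer telomeric flank to -0.034 in Inv1DelCTCF. Pairs from 3 Mb turned the Epha4 domain with the inner telomeric flank to 0.16 in WT and 0.24 in Inv1.

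Inv1 ESC against Inv1 changed direction for the gene-dense region and the Epha4 domain (log2 -0.12). There it was 0.083 over pairs from 3 Mb, -0.18 with the line, -0.064 by the median over block pairs and -0.31 with the contact beyond 5 Mb subtracted. For the outer centromeric flank with the gene-dense region, the values given above with equal block totals no longer put Inv1 ESC below Inv1. The Epha4 domain and telomeric flank (0.25) gave 0.29 with the line, 0.069 with equal totals, 0.21 without the outer 500 kb, 0.21 from 3 Mb and 0.30 from read pairs. The telomeric flanks (-0.54) gave -0.80 with the line and -0.67 with equal totals. The inner centromeric flank and gene-dense region (0.36) gave 0.096 and 0.89 under the same settings, 0.22 from read pairs and 0.49 with the contact beyond 5 Mb subtracted. The lean of the outer centromeric flank (-0.33) was -0.55 with the line, and that of the telomeric flank (-0.26) was -0.15 with the line, -0.17 from 3 Mb and -0.35 with the gene-dense region without its first blocks, those that took the other side in the first component. The share beyond 2 Mb (1.28 percentage points higher) was 1.16 from 1.5 Mb, 0.982 from 3 Mb, 1.22 from read pairs and 1.15 without the outer 500 kb. The slope difference fell from 0.40 to 0.070 with a fit to 8 Mb. Inv1 against WT for the gene-dense region and Epha4 domain (log2 -0.12) was -0.029 with equal totals and -0.19 from 3 Mb.

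The strength along the WT pattern without the outer 500 kb was 0.0655 in Inv1 and 0.0608 in Inv1DelCTCF; in Inv1 ESC it was 0.0815 with 200 kb blocks and 0.0742 with the vectors of Inv1. The 507 block pairs changed between Inv1 ESC and Inv1 became 1213 at the lower fold threshold tried, 63 at 2-fold, 60 with 200 kb blocks and 134 with a pseudocount of 0.5. In the same order, the 203 between Inv1 and WT became 796, 19, 3 and 55. Blocks of 200 kb form fewer pairs, so their counts cannot be set directly beside the others. No share over all distances is given for these counts, and nothing about the members is read from them. The correlation of WT and Inv1 was 0.645 by ranks and 0.854 with 200 kb blocks, and that of Inv1 and Inv1 ESC 0.475 and 0.645. Subtracting the contact beyond 5 Mb and adding back the WT share were chosen after seeing the data. No value could be had from 3 Mb for the telomeric flanks or for the inner centromeric flank with the gene-dense region, nor for the telomeric flanks without the outer 500 kb. No paired analysis was possible because each condition has 1 library. The cause of these shifts was not tested, except where the setting's own construction is given. Depth limits single block pairs beyond 5 Mb most.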
